A study of Mus musculus with 8 samples.

Results

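The 10 genes Fcgr2b, Cd22, Cd72, Siglecg, Cd5, Btla, Pirb, Lair1, Ptpn6 and Inpp5d encode inhibitory surface receptors of B cells and 2 phosphatases that act below them. They were picked by symbol from the 49315 features of a table of TPM, transcript abundance per length scaled to a sum of 1000000 in each library, and 9 of them were tested. A gene was tested where it reached at least 1 TPM in at least 4 of the 8 libraries, which Cd5 did not. B cells were isolated from the spleens of mice aged 4 months and their poly(A) RNA was sequenced. The 4 libraries of the FcγRIIB-/-/UMPSBKO genotype, called UMPS_BKO here, came from mice with a B cell deletion of Umps, which encodes the enzyme of the last steps of de novo UMP synthesis. The 4 control libraries came from FcγRIIB-/-/CD23Cre+ mice. Mice of both groups lack the inhibitory Fc receptor FcγRIIB and are a model of spontaneous lupus-like disease. CD23 is a receptor of mature B cells, so a Cre recombinase placed under it acts late in B cell development. The sources used here do not give which Cre the UMPS_BKO mice carry or the exons that either deletion removes. The labels number the libraries of a group as replicates without tying them to separate animals. The p-values therefore measure the spread between these libraries only, which may be technical.

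An inhibitory receptor carries in its cytoplasmic tail an immunoreceptor tyrosine-based inhibitory motif (ITIM). When the B cell receptor is engaged, the kinase LYN phosphorylates this tyrosine, and the tail then binds a phosphatase. SHP-1, the product of Ptpn6, removes phosphate from tyrosines of the activating kinases and adaptors. SHIP-1, the product of Inpp5d, removes a phosphate from the membrane lipid that PI3 kinase makes. Loss of FcγRIIB, CD22, Siglec-G, SHP-1 or SHIP-1 function is known to make mouse B cells overreactive or to favour autoantibodies.

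The libraries differed in composition within each group. The recovered depth was 10.6 to 28.6, in units of 1000000 reads, in UMPS_BKO libraries and 5.81 to 18.8 in control libraries. Ribosomal RNA-like features took 37.6% to 60.5% of TPM in UMPS_BKO libraries and 5.42% to 60.3% in control libraries. Mitochondrially encoded features took 8.42%, 19.2%, 18.5% and 17.2% of TPM in UMPS_BKO replicates 1 to 4, against 9.12%, 8.22%, 5.33% and 8.88% in control replicates 1 to 4, so that UMPS_BKO replicates 2 to 4 lay above all controls and replicate 1 within them. The mean log2(TPM + 1) of 16 pan-B genes, none of them among the 10, was 7.95, 6.31, 6.64 and 4.65 in UMPS_BKO replicates 1 to 4, against 7.22, 8.17, 8.63 and 8.22 in control replicates 1 to 4. UMPS_BKO replicate 1 lay within the controls in the pan-B mean and the other UMPS_BKO libraries lay below all controls. Red cell markers (8 of 9 in the table) summed to 4170 to 46967 TPM in UMPS_BKO libraries and 123 to 522 TPM in control libraries. Skeletal muscle markers summed to 101653 TPM in UMPS_BKO replicate 4 and 2383 TPM in control replicate 1, and to at most 1171 TPM elsewhere. Hepatocyte markers summed to 41580 and 12498 TPM in control replicates 2 and 3, and to 1.97 to 16.2 TPM in the other libraries. In RNA from bulk isolates, fewer B cells and less RNA of a gene per B cell cannot be told apart. Umps itself was at 5.99, 1.05, 13.6 and 2.16 TPM in UMPS_BKO libraries, against 16.1, 35.1, 18.6 and 8.98 TPM in control libraries (log2 difference −1.88 ± 0.76, SE; limma, adjusted p = 0.283), and the groups overlapped because UMPS_BKO replicate 3 exceeded control replicate 4.

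None of the 9 tested members passed the test across all genes in limma (adjusted p under 0.05), in either direction. With array weights, which weigh each library by how well it follows its group, Cd22, Cd72, Btla and Ptpn6 were called lower, among 1906 genes called lower in all. With equal weights the test called 0.0934% of the 10708 tested genes lower in UMPS_BKO and 0.0374% higher, that is 10 and 4 genes. The lower count was 1 without UMPS_BKO replicate 2 or 3 or control replicate 3 or 4, 3 without UMPS_BKO replicate 4, 6 without control replicate 2, 24 without control replicate 1 and 231 without UMPS_BKO replicate 1. The higher count was 17 without UMPS_BKO replicate 1, and 0 without UMPS_BKO replicate 2 or 3 or control replicate 3 or 4. After scaling by the median of ratios 6 genes were lower and 4 higher. Fcgr2b, Cd22, Cd72, Btla and Ptpn6 were lower at an unadjusted p under 0.05, a level that 16.4% of all tested genes reached in that direction and 0.925% reached in the other. This count of 5 members was 2 after scaling by the median of ratios (Cd72 and Btla), and 1 (Btla) after quantile normalization or with ribosomal RNA-like and mitochondrial features removed. It ranged from 2 without control replicate 3 and 3 without UMPS_BKO replicate 4 to 7 without UMPS_BKO replicate 1, and was 1 without control replicate 2 and UMPS_BKO replicate 4 together. Leaving out these libraries together still keeps control replicate 3, with its hepatocyte markers. The median log2 difference of the tested members was −1.50, beside −0.90 for all tested genes, of which 84.3% lay below 0. Scaling moved the median of all genes to −0.15 with the median of ratios and −0.02 with quantile normalization, and that of the members to −0.87 and −0.67. With each of these scalings 7 of the 9 members lay below the median of all genes and Siglecg and Lair1 above it.

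**Figure D1:**
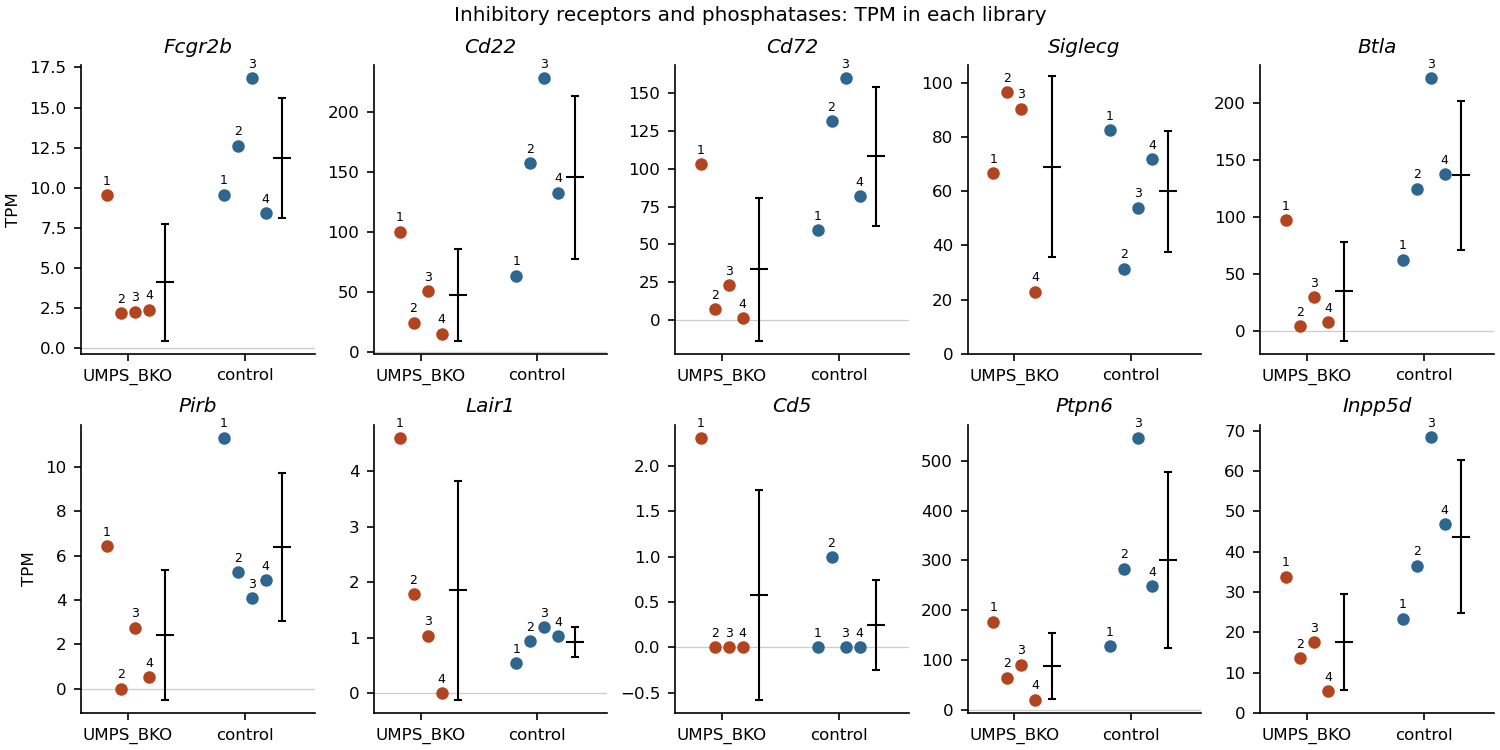
TPM of each of the 10 genes (vertical axes, linear, 1 panel per gene) in UMPS_BKO libraries (red) and control libraries (blue); numbers are replicate numbers and the black marks give mean ± SD of 4 libraries. In 7 panels UMPS_BKO replicates 2 to 4 sit below all controls while replicate 1 sits among them; Siglecg, Lair1 and Cd5 do not show this arrangement.

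Of the 10 genes, 7 showed the same arrangement of libraries in TPM: Fcgr2b, Cd22, Cd72, Btla, Pirb, Ptpn6 and Inpp5d. They had UMPS_BKO replicates 2 to 4 below all 4 controls and replicate 1 within the control range. This arrangement was found in 15.3% of all tested genes, counting every gene whose replicate 1 was not itself below all controls, and the pan-B mean has it too. The mitochondrial share divides the libraries in the same way, with UMPS_BKO replicates 2 to 4 above all controls, and its part in the members' values was not tested. Counted without regard to replicate 1, UMPS_BKO replicates 2 to 4 lay below all controls in 20.1% of the tested genes. No member had all 4 UMPS_BKO libraries below all controls, as 4.81% of the tested genes did, and none had all 4 above, as 0.504% did. With ribosomal RNA-like and mitochondrial features removed, Inpp5d and Pirb no longer had UMPS_BKO replicates 2 to 4 below all controls. Pirb was then at 8.26 TPM in UMPS_BKO replicate 3, against 6.09 and 4.86 TPM in control replicates 2 and 3.

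Promoter sequences are shown for Cd22, Siglecg and Btla, because the ratio of Siglecg to Cd22 is compared further on and Btla had all UMPS_BKO libraries below all controls relative to other B cell transcripts. They are RefSeq sequences on GRCm38.p6, 250 bases before to 50 bases after the start that RefSeq gives, read 5′ to 3′ on the gene's strand. Capitals mark matches, on either strand, to GAGGAA, the core bound by the ETS factor PU.1, and to the EBF1 motif, an inverted repeat of TCCC around 2 free bases.
Cd22, chr7:30878979-30879278, minus strand: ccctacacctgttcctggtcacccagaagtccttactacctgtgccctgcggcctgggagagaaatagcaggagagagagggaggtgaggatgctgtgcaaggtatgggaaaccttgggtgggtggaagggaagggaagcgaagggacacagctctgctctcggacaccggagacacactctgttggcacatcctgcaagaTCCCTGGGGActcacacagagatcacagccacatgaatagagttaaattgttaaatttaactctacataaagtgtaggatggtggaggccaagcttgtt
Siglecg, chr7:43407989-43408288, plus strand: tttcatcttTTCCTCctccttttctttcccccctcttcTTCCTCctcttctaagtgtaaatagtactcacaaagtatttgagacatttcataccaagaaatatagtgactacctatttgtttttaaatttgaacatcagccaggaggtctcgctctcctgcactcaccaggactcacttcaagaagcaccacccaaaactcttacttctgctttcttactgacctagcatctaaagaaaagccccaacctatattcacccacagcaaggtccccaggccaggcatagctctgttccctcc
Btla, chr16:45224087-45224386, plus strand: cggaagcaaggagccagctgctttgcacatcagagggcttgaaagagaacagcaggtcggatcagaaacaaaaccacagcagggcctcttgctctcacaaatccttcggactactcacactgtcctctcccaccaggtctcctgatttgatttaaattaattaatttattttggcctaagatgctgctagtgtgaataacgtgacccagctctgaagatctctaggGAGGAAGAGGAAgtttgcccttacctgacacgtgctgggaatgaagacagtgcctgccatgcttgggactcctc
The Cd22 window holds 1 EBF1 motif, 49 bases before the start, and no GAGGAA. The Btla window holds 2 adjacent GAGGAA, 24 and 18 bases before the start, and the Siglecg window holds 2, 241 and 212 bases before it. RefSeq gives Siglecg a further, overlapping start window without a match. Of the other members, Pirb had 3 matches to GAGGAA, Inpp5d 2, and Cd72, Lair1 and Cd5 had 1 each, while Fcgr2b and Ptpn6 had 0. No match to one motif overlapped a match to the other. Among 32851 RefSeq mouse promoters of this length, 28.3% held GAGGAA and 0.9% held the EBF1 motif. The octamer ATTTGCAT, found in 1.7% of them, was in no member's window. These matches describe letters only and were not tested for binding.

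Fcgr2b (ENSMUSG00000026656, GRCm38 chromosome 1, 170958617 to 170976547, minus strand) encodes the receptor that all mice of the study lack. It was still read at 9.54, 2.18, 2.28 and 2.40 TPM in UMPS_BKO replicates 1 to 4, against 9.56, 12.6, 16.8 and 8.42 TPM in control replicates 1 to 4. These values rest on 1041, 124, 175 and 220 recovered reads in UMPS_BKO libraries, against 703, 426, 240 and 528 in control libraries. UMPS_BKO replicate 1 was level with control replicate 1, and UMPS_BKO replicates 2 to 4 stood close together, below every control. The log2 difference was −1.50 ± 0.66 (SE, 95% interval −2.94 to −0.07; limma, adjusted p = 0.283). Reads outside the deleted exons do not test the genotype, and 155 exon bases are shared with Gm38204 on the opposite strand. The strand setting of the counting is not given, so reads of overlapping genes cannot be told apart.

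Cd22 (ENSMUSG00000030577, GRCm38 chromosome 7, 30865402 to 30880342, minus strand), a lectin that binds sialic acid and docks SHP-1, had the smallest difference of the 9 tested members relative to other B cell transcripts, −0.14 on the scale described further on. It was at 100.1, 24.0, 50.5 and 15.0 TPM in UMPS_BKO replicates 1 to 4, against 63.4, 157, 228 and 132 TPM in control replicates 1 to 4. UMPS_BKO replicate 1 exceeded control replicate 1, and the other UMPS_BKO libraries lay below all controls. The group means were 47.4 ± 38.2 TPM in UMPS_BKO and 145 ± 67.8 TPM in control libraries (SD, n = 4 each), and the log2 difference was −1.81 ± 0.68 (SE, 95% interval −3.27 to −0.34; limma, adjusted p = 0.283). Cd22 shares 479 exon bases with the antisense gene Gm29439, which reached at most 7.97 TPM.

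Cd72 (ENSMUSG00000028459, chromosome 4, 43446462 to 43454628, minus strand) encodes a C-type lectin-like receptor whose ITIM binds SHP-1. It was at 103, 7.25, 23.0 and 1.35 TPM in UMPS_BKO replicates 1 to 4, against 59.4, 131, 159.6 and 81.9 TPM in control replicates 1 to 4. UMPS_BKO replicate 1 lay within the control range, and replicate 4 rested on only 73 recovered reads. Of the 9 tested members Cd72 had the largest log2 difference, −2.78 ± 0.96 (SE, 95% interval −4.87 to −0.69; limma, adjusted p = 0.283), at the 2.40 percentile of the differences of all tested genes. Cd72 shares 1423 exon bases with Tesk1, a protein-coding gene on the opposite strand.

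Btla (ENSMUSG00000052013, chromosome 16, 45224315 to 45257670, plus strand) encodes an immunoglobulin-family receptor that binds HVEM and recruits SHP phosphatases. It was at 97.5, 4.15, 29.6 and 7.82 TPM in UMPS_BKO replicates 1 to 4, against 62.6, 125, 222 and 138 TPM in control replicates 1 to 4. As for Cd72, UMPS_BKO replicate 1 lay within the control range and the other libraries of its group lay far below it. The log2 difference was −2.70 ± 0.86 (SE, 95% interval −4.56 to −0.85; limma, adjusted p = 0.283), at the 2.61 percentile. Leaving out UMPS_BKO replicate 1 brought Btla and Cd72 past the threshold, at −3.49 and −3.71. The limma adjusted p was then 0.0420 for Btla, in a range of 0.0325 to 0.628 over its alternatives, and 0.0427 for Cd72, in a range of 0.0356 to 0.628. Tnfrsf14, the gene of the Btla ligand HVEM, did not pass the test (log2 difference 0.08 ± 1.22, SE; limma, adjusted p = 0.970).

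Siglecg (ENSMUSG00000030468, chromosome 7, 43408204 to 43418358, plus strand) encodes Siglec-G, another sialic acid lectin of B cells, best known from B-1 cells. Its levels went another way than those of Cd22. Siglecg was at 66.5, 96.5, 90.5 and 22.9 TPM in UMPS_BKO replicates 1 to 4, against 82.6, 31.3, 54.0 and 71.7 TPM in control replicates 1 to 4. UMPS_BKO replicates 2 and 3 were the highest of the 8 libraries and replicate 4 the lowest, so the groups overlapped fully. The means were 69.1 ± 33.4 TPM in UMPS_BKO and 59.9 ± 22.4 TPM in control libraries (SD, n = 4 each). The log2 difference was 0.10 ± 0.61 (SE, 95% interval −1.23 to 1.43; limma, adjusted p = 0.922), and its sign changed to −0.12, −0.09 and −0.17 without UMPS_BKO replicate 2, UMPS_BKO replicate 3 and control replicate 2. An absence of difference is not shown by this interval.

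**Figure D2:**
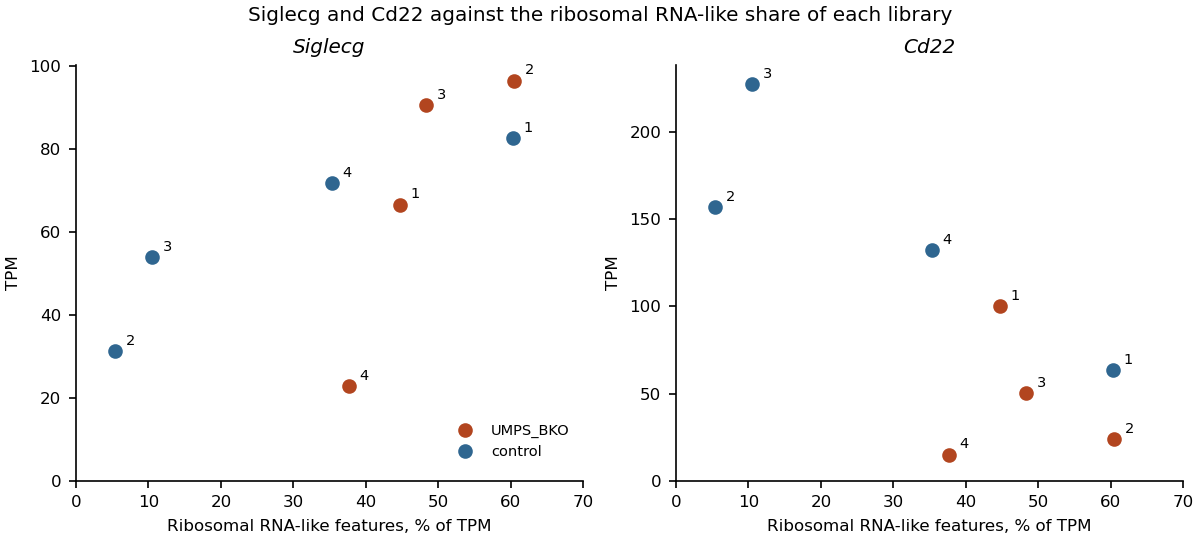
TPM of Siglecg and of Cd22 (vertical axes) against the share of TPM in ribosomal RNA-like features (horizontal axes, %) in UMPS_BKO libraries (red) and control libraries (blue), with replicate numbers. Within each group the order of the libraries in Siglecg is the order of this share, while Cd22 is lowest in UMPS_BKO replicates 4 and 2, at 15.0 and 24.0 TPM.

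Within each group the order of Siglecg over the libraries was the order of the ribosomal RNA-like share. This share was 44.7%, 60.5%, 48.3% and 37.6% in UMPS_BKO replicates 1 to 4, against 60.3%, 5.42%, 10.5% and 35.3% in control replicates 1 to 4. The order did not hold across the groups. UMPS_BKO replicate 4, at a share of 37.6%, had 22.9 TPM of Siglecg, against 31.3 TPM in control replicate 2, at 5.42%. Control replicates 2 and 3, with the lowest shares, were also the libraries with hepatocyte markers. How many other genes follow the share within each group was not counted. The part of the share in the Siglecg values was not tested. With ribosomal RNA-like and mitochondrial features taken out of the sum, Siglecg was at 142, 475, 272 and 50.6 TPM of the remaining sum in UMPS_BKO libraries, against 270.1, 36.3, 64.1 and 129 TPM of it in control libraries. The groups still overlapped, and the log2 difference was then 0.87. Pax5 and Ebf1, transcription factors of B cell identity, were the 2 of the 16 pan-B genes with a higher mean in UMPS_BKO libraries, and they were picked with these values in view. Pax5 averaged 441 ± 248 TPM in UMPS_BKO and 330 ± 88.5 TPM in control libraries, and Ebf1 135 ± 71.1 TPM in UMPS_BKO and 113 ± 26.8 TPM in control libraries (SD, n = 4 each).

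Pirb (ENSMUSG00000058818, chromosome 7, 3711409 to 3720391, minus strand) and Lair1 (ENSMUSG00000055541, chromosome 7, 4003402 to 4063204, minus strand) are immunoglobulin-like receptors of the same chromosome region, for MHC class I and for collagen, and myeloid cells carry both as well. Pirb was at 6.44, 0, 2.75 and 0.537 TPM in UMPS_BKO replicates 1 to 4, against 11.3, 5.26, 4.08 and 4.89 TPM in control replicates 1 to 4. Lair1 was at 4.60, 1.78, 1.04 and 0 TPM in UMPS_BKO replicates 1 to 4, against 0.548, 0.942, 1.19 and 1.02 TPM in control replicates 1 to 4. The 2 genes thus differed in TPM in where they were high. UMPS_BKO replicates 1 and 2 exceeded every control in Lair1, while UMPS_BKO replicates 2 to 4 lay under every control in Pirb. Their counts were small, with 0 to 542 recovered reads for Pirb and 0 to 648 for Lair1 in UMPS_BKO libraries, against 45 to 642 for Pirb and 22 to 83 for Lair1 in control libraries. The log2 differences were −1.44 ± 0.75 for Pirb (SE; limma, adjusted p = 0.305) and 0.31 ± 0.60 for Lair1 (adjusted p = 0.750), and that of Lair1 was −0.10 without UMPS_BKO replicate 1. Pirb has near-identical Pira neighbours, so the division of reads among them is uncertain. Markers of macrophages and monocytes (12 genes) summed to 51.3 to 374 TPM in UMPS_BKO libraries and 199.9 to 599 TPM in control libraries. Lyz2 was at 143, 25.5, 73.7 and 23.7 TPM in UMPS_BKO replicates 1 to 4, against 55.9, 151, 170 and 166 TPM in control replicates 1 to 4. Of the 12, Itgam and Fcgr1 had a higher mean in UMPS_BKO libraries. Only Cd14 was listed at 0 in all 4 UMPS_BKO libraries. It was also at 0 in control replicates 1 and 3, with 5.90 and 0.763 TPM in control replicates 2 and 4. The part of these cells in the Pirb and Lair1 values was not tested.

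Cd5 (ENSMUSG00000024669, chromosome 19, 10717116 to 10739002, minus strand), a receptor of T cells and B-1 cells that dampens antigen receptor signals, was read in 2 libraries. It stood at 2.31 TPM in UMPS_BKO replicate 1 and at 0.996 TPM in control replicate 2, and was listed at 0 in the other 6 libraries. The 10 T cell markers summed to 20.98 to 238 TPM in UMPS_BKO libraries and 161 to 429 TPM in control libraries. Cd2 took 129 TPM of this sum in UMPS_BKO replicate 1, against 200.4 TPM in control replicate 2, and Cd3e was at 2.06 and 11.9 TPM in these libraries. Like the pan-B mean, Cd2 was below all controls in UMPS_BKO replicates 2 to 4 and within them in replicate 1. The sum may therefore not follow T cells alone. The part of T cells in the Cd5 values was not tested.

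In TPM the phosphatase genes Ptpn6 and Inpp5d were lower in UMPS_BKO replicates 2 to 4 than in every control, without passing the test. For Inpp5d this did not hold with ribosomal RNA-like and mitochondrial features removed. It was then at 67.2 and 52.9 TPM in UMPS_BKO replicates 2 and 3, against 42.3 TPM in control replicate 2. Ptpn6 (ENSMUSG00000004266, chromosome 6, 124720707 to 124738714, minus strand) reached 176, 63.9, 90.1 and 19.6 TPM in UMPS_BKO replicates 1 to 4, against 127, 283, 547 and 248 TPM in control replicates 1 to 4. The log2 difference was −1.96 ± 0.71 (SE, 95% interval −3.50 to −0.42; limma, adjusted p = 0.283). UMPS_BKO replicate 1 again exceeded control replicate 1. Inpp5d (ENSMUSG00000026288, chromosome 1, 87620312 to 87720507, plus strand) was at 33.8, 13.6, 17.6 and 5.37 TPM in UMPS_BKO replicates 1 to 4, against 23.4, 36.5, 68.4 and 46.8 TPM in control replicates 1 to 4. Its log2 difference of −1.41 ± 0.65 (SE; limma, adjusted p = 0.287) was smaller than that of Ptpn6, and whether the 2 differ was not tested. Ptpn6 shares 195 exon bases with the antisense gene Gm20531, which reached at most 6.21 TPM.

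**Figure D3:**
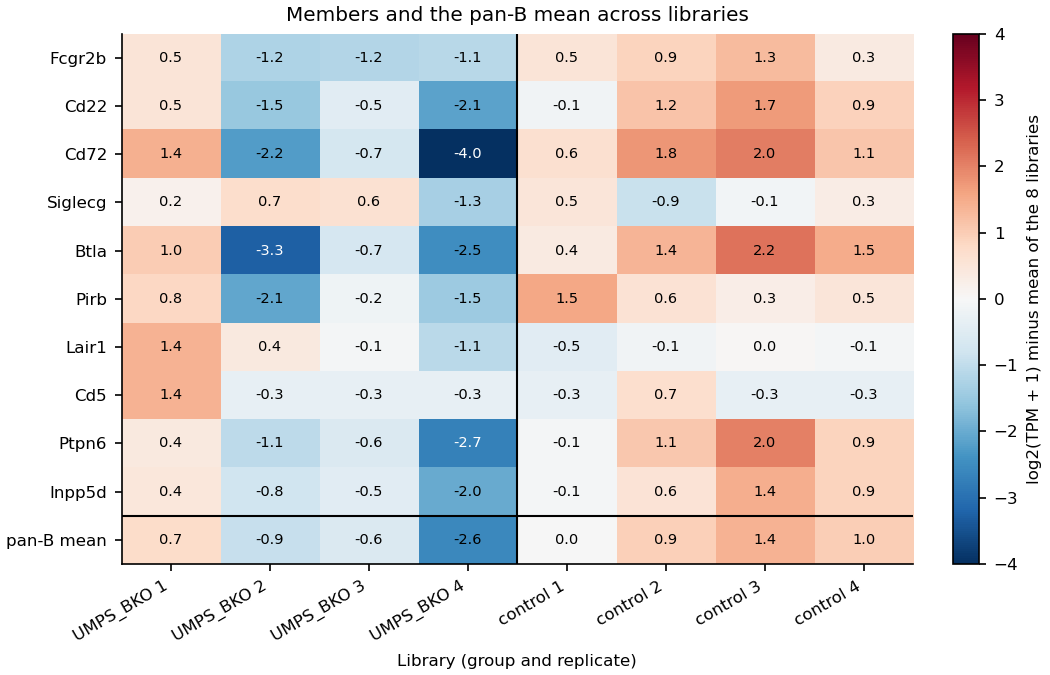
Log2(TPM + 1) of each of the 10 genes and the mean of 16 pan-B genes (rows), each minus its mean over the 8 libraries (columns; UMPS_BKO replicates 1 to 4, then control replicates 1 to 4); red is above and blue below that mean. Cd22, Cd72, Btla, Ptpn6, Inpp5d and the pan-B row are below their means in UMPS_BKO replicates 2 to 4, whereas Siglecg is above its mean in replicates 2 and 3 and Lair1 in replicate 2.

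To set each gene against the other B cell transcripts of its library, the pan-B mean was subtracted and the fit repeated. The log2 difference of all genes then had a median of 0.77, and that of the tested members had a median of 0.16, with 4 members below 0 and 5 above. No member passed in limma on this scale, on which 0.0187% of the tested genes were called lower and 0.0374% higher. All genes shift by the same constant here, so the order of the members is unchanged and only their spreads differ. Cd22, Ptpn6, Fcgr2b, Pirb and Inpp5d had group differences nearest 0 on this scale, at −0.14 (95% interval −1.13 to 0.85), −0.29, 0.16, 0.23 and 0.25 (limma, adjusted p from 0.762 to 0.929). When a mean of 4 of these genes replaced that of the 16, the 5 stood at 0.55 for Cd22, 0.39 for Ptpn6, 0.85 for Fcgr2b, 0.91 for Pirb and 0.94 for Inpp5d. Without UMPS_BKO replicate 4 Fcgr2b was at −0.29 and Pirb at −0.10, without control replicate 4 Fcgr2b was at −0.03, without control replicate 3 Pirb was at −0.11, and without UMPS_BKO replicate 2 Cd22 was at 0.04. Ptpn6 was within −0.48 to −0.14 of the pan-B mean in UMPS_BKO libraries and within −0.26 to 0.47 in control libraries, the narrowest range of the 10 genes in UMPS_BKO.

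Btla was the member with all 4 UMPS_BKO libraries below all controls on this scale, an arrangement found in 0.495% of the tested genes. Its values were −1.33, −3.94, −1.71 and −1.51 log2 units from the pan-B mean in UMPS_BKO replicates 1 to 4, against −1.22, −1.19, −0.83 and −1.10 in control replicates 1 to 4. Replicate 2 was far from the rest of its group, and the gap between replicate 1 and the nearest control was small. The difference was −1.04 ± 0.62 (SE; limma, adjusted p = 0.557), −0.43 without UMPS_BKO replicate 2 and −0.35 with the mean of 4 genes. Cd72 differed by −1.11 ± 0.60 (adjusted p = 0.531) with overlapping groups, and by −0.43 with the mean of 4 genes. Its values were −1.26, −3.27, −2.06 and −3.42 in UMPS_BKO replicates 1 to 4, against −1.30, −1.12, −1.30 and −1.85 in control replicates 1 to 4.

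Siglecg and Lair1 were the members on the other side. Siglecg stood at −1.88, 0.30, −0.13 and −0.08 log2 units from the pan-B mean in UMPS_BKO replicates 1 to 4, against −0.83, −3.15, −2.85 and −2.03 in control replicates 1 to 4. In UMPS_BKO replicates 2 to 4 it was thus about as abundant as the average pan-B gene, and in 3 of the controls well below it. The difference was 1.77 ± 0.66 (SE, 95% interval 0.32 to 3.22; unadjusted p = 0.0206, limma, adjusted p = 0.501). Lair1 differed by 1.98 ± 0.66 (adjusted p = 0.501), with all 4 UMPS_BKO libraries above all controls, as for 3.4% of the tested genes. The 2 genes reached an unadjusted p under 0.05 in limma, as did 8.82% of tested genes in this direction. Siglecg no longer reached it without UMPS_BKO replicate 2 or 3 or control replicate 2 or 3 (limma, unadjusted p from 0.0531 to 0.0677), nor did Lair1 with a pseudocount of 0.1 (limma, unadjusted p = 0.159). For Lair1 the scale has a floor, since a gene listed at 0 stands at minus the pan-B mean: its highest value, −4.65, was that of UMPS_BKO replicate 4, where it was not read. A positive difference on this scale was not particular to Siglecg among B cell genes. Of the 16 pan-B genes 7 had a positive difference and 9 a negative one, with Pax5 at 1.97 and Ebf1 at 1.75.

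**Figure D4:**
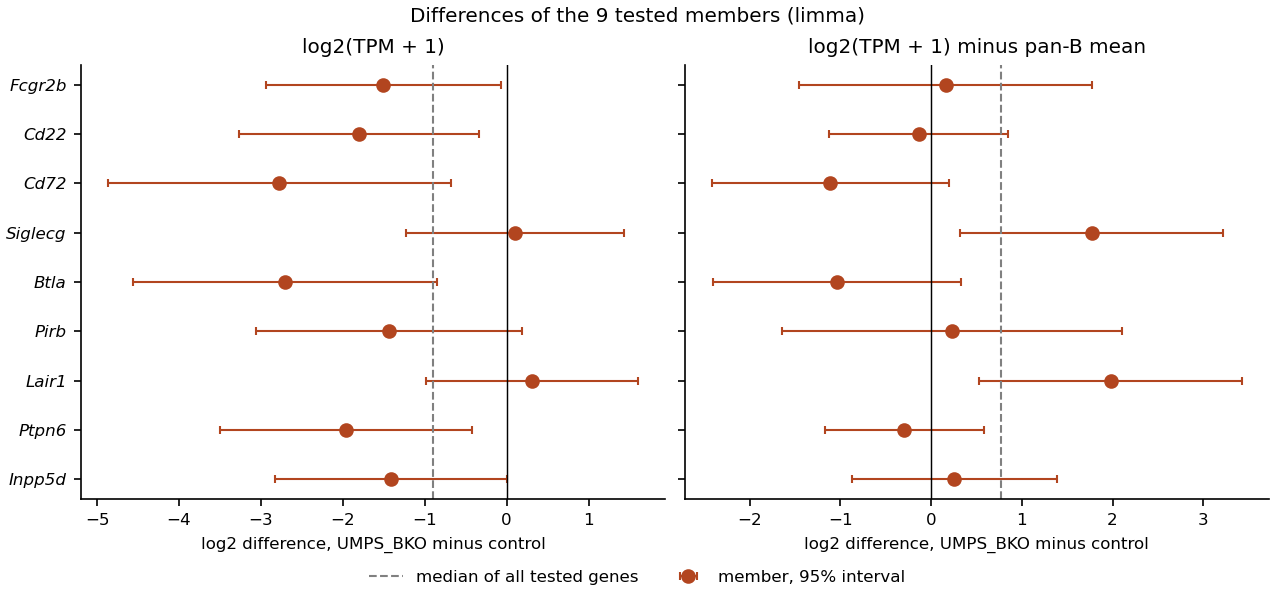
Log2 difference, UMPS_BKO minus control, of the 9 tested members in TPM (left) and relative to the pan-B mean (right); points are limma estimates from 4 libraries per group, bars are 95% intervals and the dashed line is the median of all tested genes, at −0.90 and 0.77. Cd72 and Btla lie farthest to the left and Siglecg and Lair1 farthest to the right in both panels.

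Ratios of 2 genes within a library depend little on the scaling of its TPM, and 5 such ratios were compared. They can still follow its composition where the 2 genes do so unequally. None had p under 0.05 in a two-sided exact permutation test, whose smallest possible p is 0.0286 with 70 ways to split the 8 libraries into 4 and 4. After adjustment over the 5 ratios, a single ratio could not pass by itself even with its groups fully apart. The adjusted values therefore cannot decide whether any single ratio differed. The ratio of Siglecg to Cd22, the 2 lectins of the same ligand class, came nearest. Its log2 value was −0.58, 1.97, 0.83 and 0.58 in UMPS_BKO replicates 1 to 4, against 0.38, −2.29, −2.06 and −0.88 in control replicates 1 to 4. In 3 of 4 UMPS_BKO libraries Siglecg outranked Cd22 by more than in any control, and in replicate 1 it was below Cd22. The difference of 1.91 corresponds to a 3.75-fold higher ratio (exact permutation p = 0.0571, adjusted p = 0.286 over 5 ratios). Without control replicate 2 it was 1.55 (exact permutation p = 0.114). In control replicates 1, 4, 3 and 2 the ratio fell in the order of the ribosomal RNA-like share, 60.3%, 35.3%, 10.5% and 5.42%. In UMPS_BKO libraries the ratio was highest in replicates 2 and 3, as was that share. It was higher in replicate 4 than in replicate 1, against the order of the share. The part of this share in the ratio was not tested.

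The TPM ratio of Cd22 to Cd79a, a signalling chain of the B cell receptor, was 0.0593, 0.160, 0.0904 and 0.247 in UMPS_BKO replicates 1 to 4, against 0.0616, 0.0604, 0.0716 and 0.0629 in control replicates 1 to 4. UMPS_BKO replicate 1 was just below the lowest control and the other 3 were above the highest, and the controls stood close together. The log2 difference was 0.94 (exact permutation p = 0.143, adjusted p = 0.357), 0.59 without UMPS_BKO replicate 4 and 1.29 without UMPS_BKO replicate 1. Ptpn6 and Syk, the phosphatase and the kinase it opposes, kept the closest ratio of the 5. Its log2 value averaged 1.64 ± 0.20 in UMPS_BKO and 1.62 ± 0.07 in control libraries (SD, n = 4 each). The difference was 0.02 (exact permutation p = 0.943), −0.07 without UMPS_BKO replicate 2 and −0.02 without control replicate 1. Inpp5d to Pik3cd, the phosphatase and the kinase of the same lipid, differed by −0.32 (exact permutation p = 0.457). This difference was −0.09 without UMPS_BKO replicate 2, −0.12 without UMPS_BKO replicate 4, −0.07 without control replicate 4, and −0.56 and −0.52 without UMPS_BKO replicates 1 and 3. Pirb to Cd22 differed by 0.37 (exact permutation p = 0.686) and by −0.04 without control replicate 3.

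**Figure D5:**
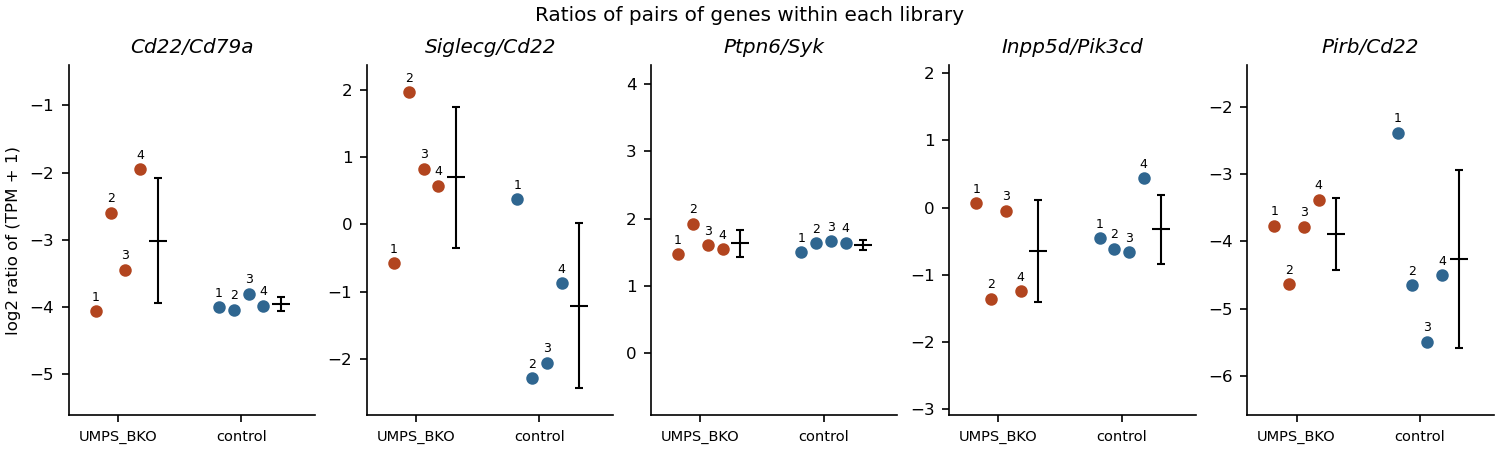
Log2 ratio of (TPM + 1) of 5 gene pairs (vertical axes, all spanning the same number of log2 units) in UMPS_BKO libraries (red) and control libraries (blue); numbers are replicate numbers and black marks give mean ± SD of 4 libraries. Siglecg/Cd22 is above all controls in 3 UMPS_BKO libraries, and Ptpn6/Syk stays between 1.47 and 1.93 in every library.

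Ptpn6 was the most abundant of the 10 transcripts per length in all 4 controls, and ranked 1 or 2 in every UMPS_BKO library. It made up 29.4%, 29.97%, 29.3% and 26.2% of the members' summed TPM in UMPS_BKO replicates 1 to 4, against 28.9%, 36.1%, 42.0% and 33.9% in control replicates 1 to 4. In control libraries Cd22, Btla and Cd72 followed, at means of 145 ± 67.8, 137 ± 65.5 and 108 ± 45.7 TPM (SD, n = 4). Their SDs overlap, and these values come from the same libraries and were not tested against each other. Siglecg, at 59.9 ± 22.4 TPM, and Inpp5d, at 43.8 ± 19.0 TPM, came next and overlapped. Fcgr2b, Pirb, Lair1 and Cd5 closed the order, at 11.9 ± 3.76, 6.39 ± 3.32, 0.927 ± 0.274 and 0.249 ± 0.498 TPM. Siglecg ranked 1 in replicates 2, 3 and 4, in replicate 3 at 90.5 TPM beside 90.1 TPM for Ptpn6, and 5 in replicate 1, against 2, 6, 6 and 5 in control replicates 1 to 4. It made up 11.1%, 45.2%, 29.4% and 30.5% of the summed TPM, against 18.8%, 4.00%, 4.15% and 9.78% in control replicates 1 to 4. Cd22 ranked 3 in all 4 UMPS_BKO libraries and 2 or 3 in control libraries. Cd72 ranked between 2 and 7 in UMPS_BKO and between 3 and 5 in control libraries, and Btla between 4 and 6 in UMPS_BKO and between 2 and 4 in control libraries.

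Of 44 genes listed around other brakes on the B cell receptor 38 were tested, and 0 were called in limma. The list is mixed and its counts do not describe brakes alone. It also holds Ptprc, Fcrl1, the ligand gene Tnfrsf14 and the sialic acid enzyme genes Cmah and St6gal1, which are not plain brakes. In TPM 36 of the 38 had a negative difference, beside 84.3% of all tested genes, with a median of −1.20 beside −0.90. At an unadjusted p under 0.05 there were 13, a level that 16.4% of all tested genes reached on the lower side. Relative to the pan-B mean 15 lay below 0 and 23 above, where 16.7% of all tested genes lay below 0. Lilrb4a, an inhibitory receptor of the same family as Pirb, was listed at 0 in all 4 UMPS_BKO libraries, against 2.85, 2.30, 4.84 and 1.48 TPM in control libraries (limma, adjusted p = 0.254). Fcrl5, an inhibitory Fc receptor-like protein, was at 9.09, 0, 5.71 and 0 TPM in UMPS_BKO libraries, against 9.17, 24.8, 21.6 and 24.2 TPM in control libraries. Csk, the kinase that restrains LYN and its relatives, was at 194, 42.4, 43.0 and 11.8 TPM in UMPS_BKO libraries, against 91.1, 299, 454 and 229.6 TPM in control libraries. Fcrl5, Ceacam1, which carries ITIMs, and Csk differed by −2.78, −2.57 and −2.31 (limma, adjusted p = 0.283 each).

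On the activating side of the receptor 30 genes were listed and tested, and 0 were called in limma. In TPM 29 had a negative difference and 11 an unadjusted p under 0.05, with a median of −1.35, beside the same 84.3%, 16.4% and −0.90 for all tested genes. Relative to the pan-B mean 9 lay below 0 and 21 above, beside the same 16.7% below 0. The 4 with the smallest p were the receptor chains Cd79a and Cd79b, the adaptor Grb2 and the phospholipase Plcg2, at −2.75, −2.56, −1.77 and −2.38 (limma, adjusted p = 0.283 each). The members' median of −1.50 thus lay beside −1.20 for the mixed list of other brakes and −1.35 for the activating genes. Differences between these lists were not tested. Relative to the pan-B mean the 3 medians were 0.16, 0.46 and 0.32.

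The genes whose levels followed each member most closely were looked for over the 8 libraries after scaling by the median of ratios, among 4833 genes with a mean of at least 10 TPM. These correlations are descriptions over 8 libraries that share depth, composition and B cell content, and the highest of many is high by selection. Ptpn6 was nearest to Syk and Wdfy4 (Pearson r 0.99 each), and Cd22 to Fam107b and H2-Ab1, an MHC class II chain (0.99 each). Cd72 was nearest to Arl6ip1 and Stt3a (0.99 each), Btla to Myd88 and H3f3a (0.99 and 0.98), and Inpp5d to Bin2 and Add3 (0.98 each). Siglecg was nearest to Arhgap15 and Jade1 (0.99 each), which were not among the 2 nearest of any other member. The low genes had looser neighbours, Mfsd1 and Tbl1xr1 for Fcgr2b (0.97 and 0.93), Ost4 and Spint2 for Pirb (0.96 and 0.93), and Rpa2 and Utp3 for Lair1 (0.93 and 0.89). Among the members, r was 0.98 between Cd22 and Cd72, 0.96 between Cd22 and Ptpn6 and 0.94 between Ptpn6 and Inpp5d. It was −0.15 between Cd22 and Siglecg and −0.42 between Btla and Siglecg.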

How the data were processed

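The authors deposited TPM values, in a single table with a column for each library and a sum of 1000000 in each. The tools named, per the submitters' processing notes, are STAR 2.5.2b, Subread 1.5.2 with featureCounts, and bcl2fastq 2.20, with build GRCm38. The TPM method, annotation release and strand setting are not stated in the labels. Features rich in ribosomal RNA lower the TPM of every other gene in their library.

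Columns were matched to samples by library name, and groups were taken from the sample titles. Differences on log2(TPM + 1) were tested over 10708 genes in limma 3.58.1 (R 4.3.3) with a trended prior, without covariates, two-sided and Benjamini-Hochberg adjusted over all genes. They are on that scale and understate the change of low genes. The rule for named genes took every member, of each list up to 4 tested genes by smallest p, and the 2 genes nearest to each tested member. Pax5, Ebf1, Tnfrsf14 and the marker genes were added. Protein stretches had been planned and were not used here, and promoters are shown in their place. The members and lists were chosen with earlier results of these data known.

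Exact permutation tests used Python 3.11.15 and scipy 1.17.1. TPM keeps no depth by itself. Multiplied by exon length (GENCODE M21), 90.6% to 92.8% of each library's values under 30 reads were whole multiples of a common step within 0.05 reads, which gave the recovered reads. No count model was run on these, they speak to counting error only, and those of Btla and Cd5 did not come out whole. Fits and read recovery were tested on simulated data. The differences planted for the fits were larger than that of any member, so they do not speak to the power for the members. The simulated reads used the same exon lengths, so they cannot show whether these lengths match the authors' annotation. Alternatives were a pseudocount of 0.1 or 5, other filters and scalings, array weights, the replicate block, a mean of 4 pan-B genes, and libraries left out.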

Additional observations from a re-analysis of the deposited data

Results flagged for a closer look

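In groups of 4 libraries, a library was singled out where its distance to the nearest other library took up nearly all of the group's range (Dixon's 95% criterion). Chance alone does this in about 1 in 20 groups, and 4 of 30 groups examined (10 genes and 5 ratios in each group) did so. Fcgr2b in UMPS_BKO replicate 1, at 9.54 TPM, stood apart from 2.18 to 2.40 TPM in the rest of its group. Cd5 in UMPS_BKO replicate 1, at 2.31 TPM, stood apart from 0 in the rest, as did Cd5 in control replicate 2, at 0.996 TPM. With 3 libraries of a group at 0 any reading in the fourth is singled out, so these 2 cannot be set against the 1 in 20. Pirb in control replicate 1, at 11.3 TPM, stood apart from 4.08 to 5.26 TPM in the other controls.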

How the results depend on the processing

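On the TPM scale each of Fcgr2b, Cd22, Cd72, Btla, Pirb, Ptpn6 and Inpp5d stayed negative under all alternatives run. No member was called with all libraries except 4 with array weights (Cd22, Cd72, Ptpn6 and Btla), and 0 to 2 were called lower with a library left out. With the replicate block 23 genes were lower (pan-B scale: 8 higher) and 0 members were called, and Lair1 had an unadjusted p of 0.064 in limma on the pan-B scale. Same-numbered libraries did not deviate together (r −0.35, −0.19, −0.03 and −0.09), beside −0.19 to 0.31 for libraries of other numbers. These deviations also hold the differences in composition, so no pairing by number was seen but one masked by them is not excluded. Genes called lower numbered 5 with a pseudocount of 5, quantile normalization or ribosomal RNA-like and mitochondrial features removed, 6 with a mean TPM of at least 5 or the median of ratios, 1 with no filter or without control replicate 2 and UMPS_BKO replicate 4 together, 1906 with array weights, and 1 to 231 with a library left out. Genes called higher numbered 1 with a pseudocount of 0.1 or those features removed, 0 with no filter, 84 with array weights, and 0 to 17 with a library left out. On the pan-B scale 1 gene was lower with a mean of 4 pan-B genes or without both libraries and 0 to 16 with a library left out. Genes higher numbered 7 with a pseudocount of 5, 0 without both libraries and 0 to 52 with a library left out.

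With a pseudocount of 0.1, Pirb/Cd22 turned to −0.68, and on the pan-B scale Fcgr2b to −0.083 and Pirb to −0.83. With 5, Ptpn6/Syk turned to −0.13. On the pan-B scale Fcgr2b was −0.15 with array weights, Fcgr2b −0.29 and Pirb −0.19 without both libraries, and Cd22 0.55 and Ptpn6 0.39 with a mean of 4 pan-B genes. With a library left out, Ptpn6/Syk ranged from −0.075 to 0.076, Pirb/Cd22 from −0.044 to 0.99, Siglecg in TPM from −0.17 to 0.56 and Lair1 from −0.10 to 0.73. Relative to the pan-B mean Fcgr2b ranged from −0.29 to 0.39, Cd22 from −0.30 to 0.037 and Pirb from −0.11 to 0.79. The causes were not tested. The reads behind Pirb, Lair1, Cd5 and Fcgr2b are few, and 4 libraries per group limit every interval.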

Other observations

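Some genes around the inhibitory receptors were looked at after their values were seen and are given as values. Lyn, the kinase that phosphorylates ITIMs, was at 140.4, 32.4, 41.5 and 8.91 TPM in UMPS_BKO replicates 1 to 4, against 95.9, 145, 219 and 132 TPM in control replicates 1 to 4. St6gal1 encodes the transferase that makes the sialic acid linkage CD22 binds. It was at 64.9, 33.4, 32.3 and 5.29 TPM in UMPS_BKO replicates 1 to 4, against 56.0, 165, 168 and 94.5 TPM in control replicates 1 to 4. Cmah, whose product turns sialic acid into the form that mouse CD22 prefers, was at 17.97, 8.71, 12.8 and 1.33 TPM in UMPS_BKO libraries, against 13.6, 24.5, 27.9 and 17.7 TPM in control libraries. Each had UMPS_BKO replicates 2 to 4 below all controls and replicate 1 within their range, and none passed the test (limma, adjusted p = 0.283 for Lyn and St6gal1 and 0.333 for Cmah). In the mixed list of other brakes, Dok2 and Tnfrsf14 were the tested genes with a positive difference, at 0.72 and 0.08.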
